A study of Mus musculus with 3 samples.

Results

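Cytosolic ribosomal protein genes were examined in cultured mouse dermal fibroblasts of 3 Fgfr3 genotypes. They were the genes whose probe sets (groups of short array probes for 1 transcript) carried exactly 1 symbol beginning with Rpl or Rps and a digit, or the symbol Rpsa, Rplp0, Rplp1 or Rplp2. Kinases of the Rps6k family, Rps19bp1 and pseudogenes were left out, among them Rps4l, which RefSeq lists as a transcribed pseudogene. This gave 25 of the 7842 genes with a single symbol on the Affymetrix array, 11 of the small and 14 of the large subunit. Where a gene had several probe sets, the one brightest on average over the arrays stood for it. A further 25 probe sets carried a ribosomal protein symbol together with other symbols and were not named.

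FGFR3Act cells came from Fgfr3G374Rneo- mice, whose receptor signals without ligand. FGFR3KO cells came from FGFR3G374Rneo+ mice, in which the allele still holds the neo cassette and gives no working receptor. FGFR3WT cells were from Bl6 mice of the wild type, and all cells were untreated and grown in fibroblast growth medium. The series states n = 3 for each group, but the table holds 1 column for each genotype, so there is no spread between cultures, no test and no p-value, and each difference is between 2 columns.

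The ribosome is the particle that translates mRNA into protein. Its small subunit decodes the mRNA, its large subunit joins the amino acids, and nearly every cell needs all of their proteins in matched amounts. Mammalian ribosomal protein mRNAs typically begin with a run of C and T bases, the 5′ terminal oligopyrimidine tract, through which the kinase complex mTORC1 and the protein LARP1 control their translation and stability. Growth factor receptors such as Fgfr3 can feed into mTORC1.

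The signal of a probe set is an arbitrary brightness that depends on its probes, so signals were compared between arrays and not between genes. Signals below the 40th percentile of an array (122.6 for FGFR3Act, 121.9 for FGFR3KO, 120.8 for FGFR3WT) were raised to that floor. Fgfr3 itself read 2.42 on FGFR3Act, 3.76 on FGFR3KO and 1.06 on FGFR3WT, all under the floor, and could not check the labels. All 14 fibroblast markers with a probe set were above the floor on each array, with sums of 66437 for FGFR3Act, 98177 for FGFR3KO and 71829 for FGFR3WT. As deposited, 11 of the 14 were lower on FGFR3Act than on FGFR3KO (53.2% of all genes). Between FGFR3KO and FGFR3WT, 10 were higher on FGFR3KO (48.5% of all genes). With quantile normalisation these counts were 12 and 6. The FGFR3Act array had 15 of 18 macrophage and leukocyte markers above its floor (summed signal 33747), FGFR3KO had 4 (3336) and FGFR3WT had 3 (4052). Of 4 markers each for keratinocytes, endothelium, skeletal muscle, melanocytes and mast cells, no array had more than 2 above the floor. No marker on the array was listed at 0. The part of these other cells in the ribosomal protein values was not tested. In bulk cultures, fewer cells of a type and less RNA per cell cannot be told apart.

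Of the 25 genes, 24 were above the floor on all 3 arrays. The exception was Rpl39, a small protein of the exit tunnel, which read 29.6 on FGFR3Act, 48.0 on FGFR3KO and 16.5 on FGFR3WT, for which no difference is given.

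RefSeq's promoter table (GRCm38.p6) held 23 of the 25 genes. Within 50 bases of a listed start, 16 of the 23 (69.6%) had a run of at least 8 C or T bases on the transcribed sense strand, against 39.3% of the 27025 genes in the table. The median longest run was 11 bases against 7 over all genes. The letters CTTCCG, searched on both strands over 300 bases, were found in 15 of the 23 genes (65.2%) against 18.8% of all genes. CTTCC is itself made of C and T, so this match can overlap such a run. A gene with several listed starts had several chances to match.

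The 30 bases around the longest run are shown for the 6 genes that lay at least 1.5-fold below FGFR3WT on FGFR3Act, because they had the largest differences in that comparison, then for 3 at the other end of that comparison and for Rpl22. Capitals mark the run of C and T inside the window of 50 bases on either side of the start. A run is cut where that window ends, as in Rpsa, whose C and T letters go on upstream in lower case.
Rpl10a: aagcgctctgCCTTCTTTCCggtttccgcg
Rps10: ccgcgcacgCCCCTTCCTTTCCagcctccg
Rpl37a: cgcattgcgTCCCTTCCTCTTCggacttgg
Rpsa: gcggaagttctcCCTTTTTgcttagcctgc
Rpl13a: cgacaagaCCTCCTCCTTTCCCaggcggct
Rpl7a: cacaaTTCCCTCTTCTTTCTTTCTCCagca
Rps24: gagcggTCCTCTTTTCCTCCTCTCCagctc
Rps3: cgcaaaacttcaTTTCCCatgcaaaacttc
Rplp0: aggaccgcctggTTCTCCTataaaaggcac
Rpl22: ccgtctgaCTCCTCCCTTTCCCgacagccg

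In GRCm38.p6 these windows lie at chr17:28328572-28328601 on the plus strand for Rpl10a and chr17:27635227-27635256 on the minus strand for Rps10. They lie at chr1:72711274-72711303 (plus) for Rpl37a, chr9:120127704-120127733 (plus) for Rpsa and chr7:45128722-45128751 (minus) for Rpl13a. For Rpl7a the window is chr2:26910788-26910817 (plus), for Rps24 chr14:24490710-24490739 (plus) and for Rps3 chr7:99483739-99483768 (minus). For Rplp0 it is chr5:115559466-115559495 (plus) and for Rpl22 chr4:152325679-152325708 (plus). The run was 10 bases long in Rpl10a, 13 in Rps10 and Rpl37a, 14 in Rpl13a and 21 in Rpl7a. In Rpsa the counted stretch was 7 bases, cut at the upstream edge of the window. At the other end of the comparison it was 19 bases in Rps24, 6 in Rps3 and 7 in Rplp0. Of the 6 genes at least 1.5-fold lower, 5 held a run of at least 8 bases inside the window, with Rpsa's cut run not counted, as did 11 of the 17 other genes with an entry. Relative to the listed start, the run began at 18 in Rpl10a, -3 in Rps10, 24 in Rpl37a, 3 in Rpl13a and -14 in Rpl7a. It began at -37 in Rps24, -47 in Rps3, 12 in Rplp0 and -39 in Rpl22, and in Rpsa it was cut at -50. A marked run therefore need not lie at the first bases of the mRNA. A match describes these letters and is not a mapped transcript start.

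The first comparison, FGFR3Act with FGFR3WT, concerned receptor activity without ligand. As deposited, 6 ribosomal protein genes were about 2- to 3-fold lower on FGFR3Act. The 12 genes with the brighter probe sets had a median log2 difference of -0.01, with 7 of the 12 lower. With quantile normalisation 11 of these 12 were lower. The median log2 difference over 24 genes was -0.26, against -0.07 over the 5244 genes compared. It was lower in 19 of the 24 genes, where 55.7% of all genes were lower. Median centring, which moved the median of all genes by over 0.1 to 0.05, gave 13 lower and 11 higher, and quantile normalisation 22 lower and 2 higher. As deposited, at least 1.5-fold lower were 6 of 24, against 16.3% of all genes, and 0 were at least 1.5-fold higher, against 11.4%. At least 2-fold lower were 5 (background 4.79%) and at least 2-fold higher 0 (background 4.14%).

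Rpl10a, which forms part of the mobile L1 stalk where spent tRNA leaves, read 935 on FGFR3Act, 3531 on FGFR3KO and 2902 on FGFR3WT. FGFR3Act was the low array, 3.10-fold below FGFR3WT. Rps10, a protein of the small subunit head near the mRNA entry, had 2308 on FGFR3Act, 8780 on FGFR3KO and 6259 on FGFR3WT, 2.71-fold lower on FGFR3Act than on FGFR3WT. Mutations in its human gene cause Diamond-Blackfan anaemia, a failure of red cell production. Rpl37a, a zinc-binding protein of the large subunit, had 1462 on FGFR3Act, 3999 on FGFR3KO and 3481 on FGFR3WT, a 2.38-fold difference between FGFR3Act and FGFR3WT.

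Rpsa, a small subunit protein also known as the laminin receptor precursor, had 1679 on FGFR3Act, 5130 on FGFR3KO and 3848 on FGFR3WT, 2.29-fold lower on FGFR3Act than on FGFR3WT. Here too FGFR3Act alone was low. Rpl13a, which in human monocytes can leave the ribosome to repress inflammatory mRNAs, had 1701 on FGFR3Act, 3677 on FGFR3KO and 3411 on FGFR3WT, 2.005-fold lower on FGFR3Act than on FGFR3WT. Rpl7a, a large subunit protein, had 3144 on FGFR3Act, 5943 on FGFR3KO and 5865 on FGFR3WT, 1.87-fold lower on FGFR3Act than on FGFR3WT. In these 6 genes FGFR3Act stood apart, and FGFR3KO was above FGFR3WT by at most 1.40-fold. They come from both subunits and remained at least 1.5-fold below FGFR3WT under all 5 scalings of the arrays (the values as deposited and 4 others). Under each scaling taken singly, 11.4% to 16.3% of all genes were at least 1.5-fold lower on FGFR3Act.

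**Figure D1:**
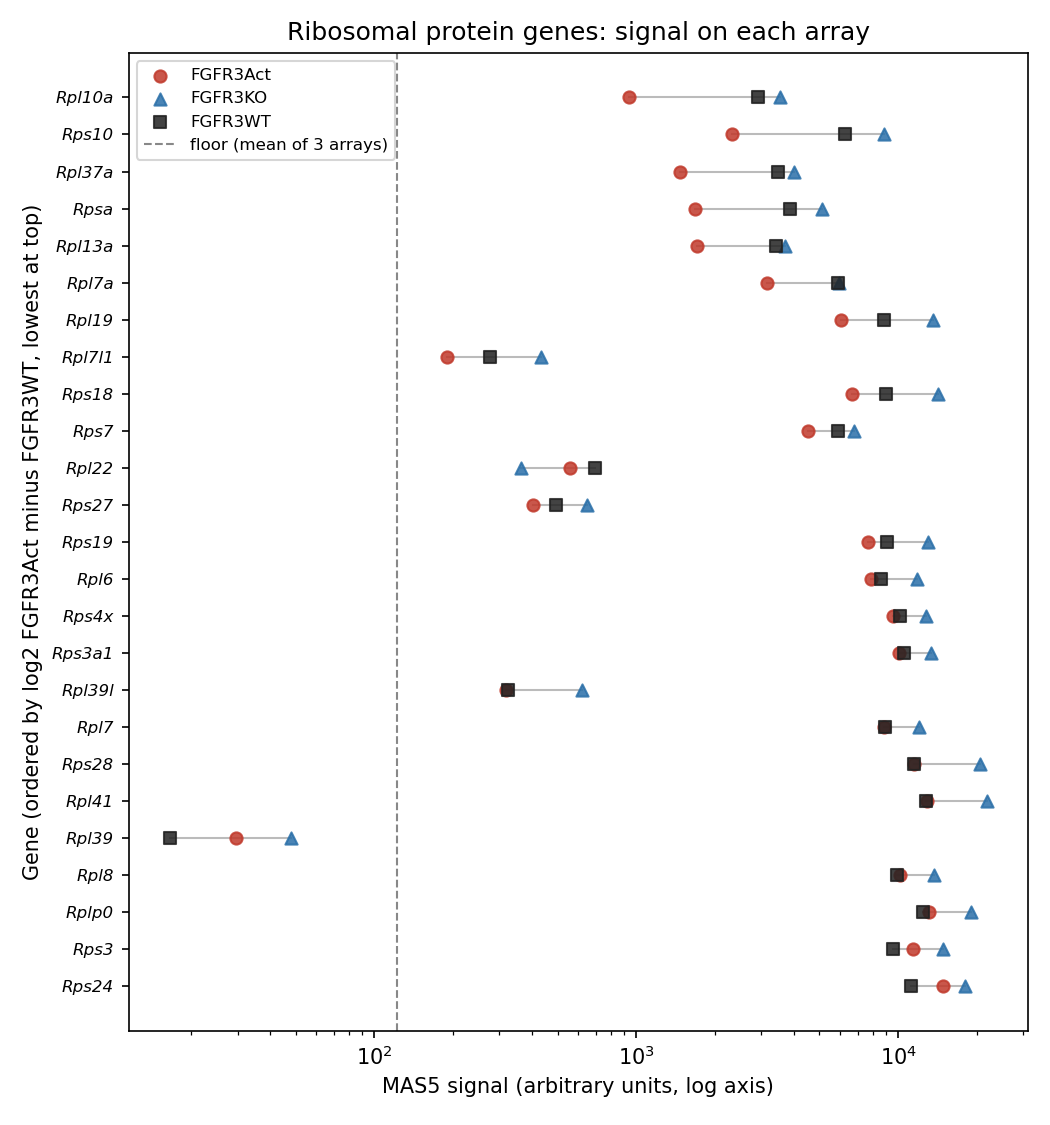
Signal (arbitrary units, log axis) of the 25 ribosomal protein genes on the FGFR3Act (red circles), FGFR3KO (blue triangles) and FGFR3WT (black squares) arrays, 1 column each, with genes ordered by the floored log2 difference FGFR3Act minus FGFR3WT and the dashed line at the mean floor. The upper 6 genes, Rpl10a to Rpl7a, have their FGFR3Act signal well to the left, and the FGFR3KO signal lies furthest right in all of the 24 genes above the floor except Rpl22.

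Further genes were lower on FGFR3Act by less than 1.5-fold. Rpl19, a protein of the exit tunnel region, had 6025 on FGFR3Act, 13587 on FGFR3KO and 8787 on FGFR3WT. Rps18, of the small subunit head, had 6631 on FGFR3Act, 14217 on FGFR3KO and 8943 on FGFR3WT. Both were lowest on FGFR3Act and highest on FGFR3KO, with log2 differences between FGFR3Act and FGFR3WT of -0.54 for Rpl19 and -0.43 for Rps18. Rps7, needed early in small subunit assembly, had 4508 on FGFR3Act, 6753 on FGFR3KO and 5867 on FGFR3WT. Rps19, the gene most often mutated in Diamond-Blackfan anaemia in people, had 7684 on FGFR3Act, 12963 on FGFR3KO and 9059 on FGFR3WT. The log2 differences between FGFR3Act and FGFR3WT were -0.38 for Rps7 and -0.24 for Rps19.

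The 5 genes above wild type on FGFR3Act as deposited (Rpl41, Rpl8, Rplp0, Rps3, Rps24) were all among the brighter ones. Rplp0, the base of the stalk that recruits elongation factors, had 13076 on FGFR3Act, 18905 on FGFR3KO and 12447 on FGFR3WT. Rps3, which lines the mRNA entry channel, had 11335 on FGFR3Act, 14803 on FGFR3KO and 9561 on FGFR3WT. Rps24 had 14791 on FGFR3Act, 18020 on FGFR3KO and 11160 on FGFR3WT, so that FGFR3WT was its low array. Its log2 difference of 0.41 was the highest of the 24 between FGFR3Act and FGFR3WT and the only one above 0 under all 5 scalings. Rpl41, which encodes a very short basic peptide, had 12834 on FGFR3Act, 21731 on FGFR3KO and 12774 on FGFR3WT. For Rpl6, Rpl7, Rpl8, Rps3a1 and Rps4x the log2 differences between FGFR3Act and FGFR3WT ran from -0.12 (Rpl6) to 0.04 (Rpl8). The probe sets named Rpl7 and Rps24 cite the same source sequence in the platform annotation, so which transcript each measures is uncertain. The probe sets used for Rpl7, Rpl41, Rps24 and Rps28 are of types that Affymetrix marks as shared between sequences or as short of unique probes, and can take signal from near copies.

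The difference varied with brightness, but not evenly. The largest drops lay at middle brightness: 4 genes with mean signals of 2048 to 4096 had a median of -1.22 and 3 genes of 4096 to 8192 had -0.90. Other genes in these ranges had medians of 0.05 and 0.17. The 3 genes of 256 to 512 (Rpl7l1, Rpl39l, Rps27) had -0.28, the single gene of 512 to 1024 (Rpl22) had -0.31, and the 13 brightest had -0.02. In 2 groups of equal size, the 12 genes with the higher mean log2 signals had a median difference of -0.01 between FGFR3Act and FGFR3WT and ranged from -0.43 to 0.41. The 12 with the lower mean had a median of -0.72 and were all lower on FGFR3Act. The 3620 other genes in their signal range had a median of -0.09, with 2112 lower. Across the 24 genes, which share the same arrays and are not replicates, the difference correlated with mean log2 signal at a Pearson r of 0.34 and a Spearman rho of 0.72, given as a description. Other bright genes were not level: the 39 other genes in the signal range of the brighter 12 had a median of 0.34, above the ribosomal protein genes of that range. The direction of the brighter 12 depended on the scaling. Their median was 0.11 with median centring, where the 39 had 0.46, and -0.32 with quantile normalisation, which gives every array the same distribution and where the 39 had 0.04.

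**Figure D2:**
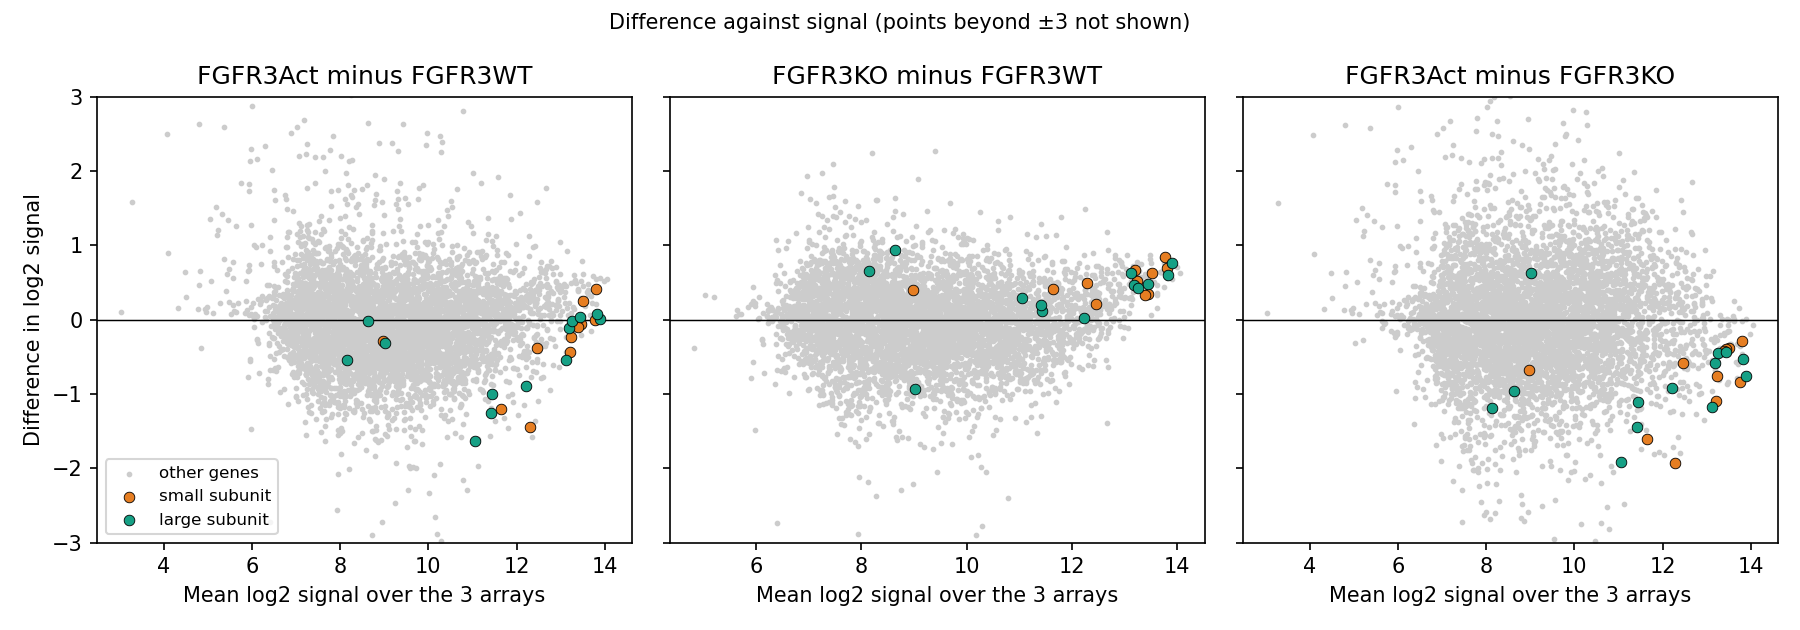
Difference in log2 signal against mean log2 signal over the 3 arrays, for each pair of arrays, with small subunit genes in orange, large subunit genes in green and all other compared genes in grey. In the first panel the lowest ribosomal protein genes, down to -1.63 (Rpl10a), sit at middle brightness, the 4 dimmest lie between -0.54 and -0.02 and the brightest reach 0.41 (Rps24), and in the second panel the brightest genes of every kind lie above 0.

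Rps28, of the small subunit head, was the only gene here with more than 1 probe set of its own. The brighter probe set read 11493 on FGFR3Act, 20564 on FGFR3KO and 11524 on FGFR3WT. The dimmer one read 2471 on FGFR3Act, 6440 on FGFR3KO and 4286 on FGFR3WT. FGFR3Act was level with FGFR3WT by the first (log2 difference -0.00) and lower by the second (-0.79), so the 2 probe sets disagree on FGFR3Act and both put FGFR3KO highest.

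The 25 unnamed probe sets were read on the same arrays, and their symbols can include those of the named genes. They are therefore not an independent check. Their median log2 difference between FGFR3Act and FGFR3WT was -0.65, and 20 of 25 were lower on FGFR3Act, 13 of them at least 1.5-fold, where the shares of all genes were 55.7% and 16.3%. The 9 as bright as the upper group of named genes had a median of 0.18, with 4 lower, and the 16 dimmer ones a median of -0.87, with 16 lower. With quantile normalisation the median over the 25 was -0.865, with 23 lower.

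The second comparison, FGFR3KO with FGFR3WT, concerned loss of the receptor. As deposited, ribosomal protein genes were higher on FGFR3KO in 23 of 24, where 48.5% of all genes were higher, with a median log2 difference of 0.47 against -0.02 over 5184 genes. At least 1.5-fold higher were 9 of 24 (background 10.3%), and 1 was at least 1.5-fold lower (background 13.7%). None was 2-fold apart in either direction, where the share of all genes was 1.93% on the higher side and 3.61% on the lower. The lower gene was Rpl22.

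The 9 higher genes were Rpl39l (1.92-fold), Rps28 (1.78-fold), Rpl41 (1.70-fold), Rps24 (1.61-fold), Rps18 (1.59-fold), Rpl7l1 (1.57-fold), Rps3 (1.55-fold), Rpl19 (1.55-fold) and Rplp0 (1.52-fold). Of these, 6 were among the 12 brighter genes, whose differences depended on the scaling. The 12 brighter genes had a median of 0.56 between FGFR3KO and FGFR3WT, and the 39 other genes of their signal range 0.57, so at that brightness ribosomal protein and other genes had like medians. The 12 dimmer genes had a median of 0.34, with 11 of 12 higher on FGFR3KO, against -0.06 over 3619 other genes of their signal range. With quantile normalisation the median of these 12 was 0.14, with 9 of 12 higher. The 99th percentile of signals was 8673 on FGFR3Act, 10070 on FGFR3KO and 7570 on FGFR3WT. With quantile normalisation the median over the 24 genes was 0.08, with 2 at least 1.5-fold higher and 1 lower, and with cyclic loess, which removes differences that depend on brightness, it was 0.24, again with 2 higher and 1 lower. Over all genes 10.8% were at least 1.5-fold higher with quantile normalisation and 10.1% with cyclic loess, so 2 of 24 higher is near the background. Counting every difference, quantile normalisation put 13 of 24 genes higher and 10 lower on FGFR3KO.

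The 2 genes at least 1.5-fold higher on FGFR3KO under all 5 scalings were both dimmer paralogues. Under each scaling taken singly, 10.1% to 13.9% of all genes were at least 1.5-fold higher. Rpl39l, a copy of Rpl39 known from male germ cells in mice, had 317 on FGFR3Act, 619 on FGFR3KO and 322 on FGFR3WT. Rpl7l1, an Rpl7-like gene, had 189 on FGFR3Act, 433 on FGFR3KO and 275 on FGFR3WT. Under all 5 scalings FGFR3KO exceeded FGFR3WT in 13 of the 24 genes, and for 10 the direction differed between scalings, among them Rplp0, Rps24 and Rps19. As deposited, 48.5% of all genes were higher. No share of all genes over the 5 scalings together is given here, so these counts have no matched background. The 25 unnamed probe sets were higher on FGFR3KO in 25 of 25 as deposited, with a median of 0.52 that became 0.06 with quantile normalisation, under which 15 of 25 were higher.

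Rpl22 went the other way. It encodes a large subunit protein that cells can lose without stopping translation and that also binds selected RNAs. It read 559 on FGFR3Act, 364 on FGFR3KO and 694 on FGFR3WT. FGFR3KO was the low array, 1.91-fold below FGFR3WT, and this log2 difference stayed between -0.93 and -0.84 under the 5 scalings. The gene has 1 probe set with a single symbol, so no second probe set could be set beside it.

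Control probe sets moved as well. Those for 18S ribosomal RNA, which the same ribosomes contain, read at their 5′ end 203 for FGFR3Act, 989 for FGFR3KO and 406 for FGFR3WT, in the middle 533, 1306 and 790, and at the 3′ end 971, 2103 and 866, in the same order of arrays. The single Gapdh control, at the 5′ end, had 3323, 5478 and 6019 in that order. Those for beta-actin had 11806, 11308 and 7635 at the 5′ end and 15347, 17443 and 10784 in the middle. At the 3′ end they had 17030, 20631 and 12512, so FGFR3WT was their low array at each position. The 18S controls were highest on FGFR3KO at each position. The ratio of the 3′ to the 5′ beta-actin signal, a sign of RNA integrity and labelling, was 1.44 on FGFR3Act, 1.82 on FGFR3KO and 1.64 on FGFR3WT. Their part in the ribosomal protein values was not tested.

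The third comparison set FGFR3Act against FGFR3KO. Ribosomal protein genes were lower on FGFR3Act in 23 of 24, where 53.2% of all genes were lower, with a median log2 difference of -0.76 against -0.05 over 5297 genes. At least 1.5-fold lower were 14 (background 20.1%) and at least 1.5-fold higher 1 (background 18.5%). At least 2-fold lower were 8 (background 7.49%) and at least 2-fold higher 0 (background 8.33%). The gene higher on FGFR3Act was Rpl22, by 1.54-fold.

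The 8 genes at least 2-fold lower were Rps10 (3.80-fold), Rpl10a (3.78-fold), Rpsa (3.06-fold), Rpl37a (2.74-fold), Rpl7l1 (2.29-fold), Rpl19 (2.26-fold), Rpl13a (2.16-fold) and Rps18 (2.14-fold). The other 6 past 1.5-fold were Rpl39l, Rpl7a, Rps28, Rpl41, Rps19 and Rps27. Rps27, a zinc-finger protein of the small subunit, had 404 on FGFR3Act, 646 on FGFR3KO and 492 on FGFR3WT. Rpl6 and Rps7 lay just short of that limit, each with a log2 difference of -0.58. Under all 5 scalings, 22 of the 24 genes were lower on FGFR3Act than on FGFR3KO and 11 were at least 1.5-fold lower. Under each scaling taken singly, 17.7% to 20.1% of all genes were at least 1.5-fold lower. The share of all genes over the 5 together is not given here. Only for Rps24 did the direction differ, with 0.08 after quantile normalisation. The 25 unnamed probe sets were lower in 25 of 25, with a median of -1.12 as deposited and between -1.06 and -1.11 under the 4 other scalings, of which quantile normalisation put 3 of 25 higher.

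Small and large subunit genes did not separate. Between FGFR3Act and FGFR3WT the 11 small subunit genes had a median log2 difference of -0.24 (range -1.44 to 0.41) and the 13 large subunit genes -0.31 (range -1.63 to 0.07). Between FGFR3KO and FGFR3WT the medians were 0.49 (range 0.20 to 0.84) for the small and 0.46 (range -0.93 to 0.94) for the large subunit. Between FGFR3Act and FGFR3KO they were -0.68 (range -1.93 to -0.28) and -0.92 (range -1.92 to 0.62). The small minus large difference of medians was thus 0.07, 0.03 and 0.24 for the 3 pairs, far inside the range among the genes of either subunit. With the 2 paralogues left out, the last of these was 0.08.

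**Figure D3:**
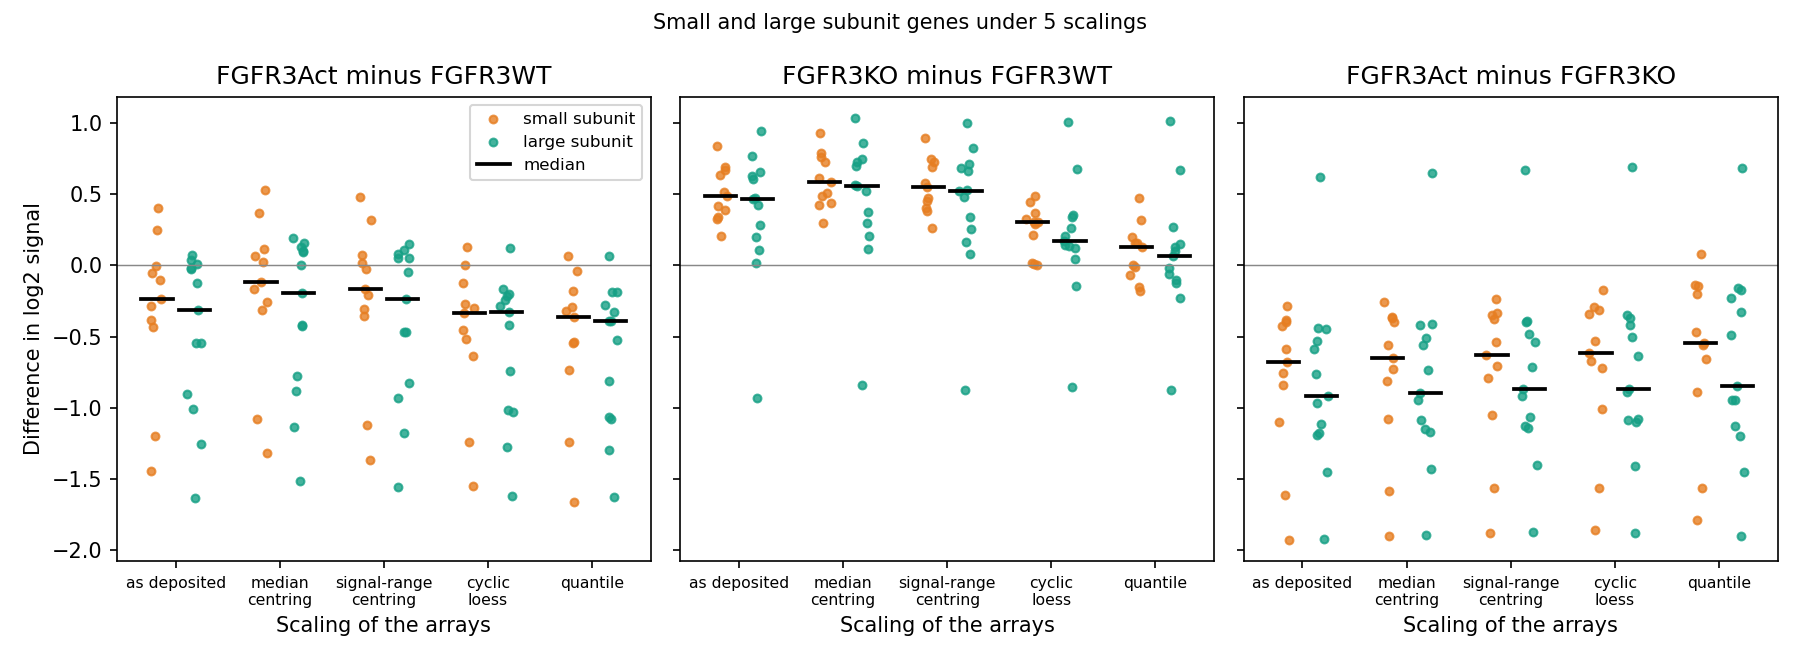
Difference in log2 signal of small (orange) and large (green) subunit genes for each pair of arrays, as deposited and under 4 other scalings, with 1 point per gene and a black bar at the median. For FGFR3Act minus FGFR3KO the medians of both subunits stay below 0 throughout. Single genes above 0 there are Rpl22 under every scaling and Rps24 with quantile normalisation. FGFR3KO minus FGFR3WT shrinks from medians of 0.49 (small) and 0.46 (large) as deposited to 0.13 (small) and 0.07 (large) with quantile normalisation.

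As deposited, proteins of the small subunit head and of its body and platform had medians of the same sign in each pair. The 5 head proteins (Rps3, Rps10, Rps18, Rps19, Rps28) had median log2 differences of -0.24 between FGFR3Act and FGFR3WT, 0.63 between FGFR3KO and FGFR3WT, and -0.84 between FGFR3Act and FGFR3KO. The 6 proteins of the body and platform (Rpsa, Rps3a1, Rps4x, Rps7, Rps24, Rps27) had -0.19, 0.37 and -0.50 in the same order of pairs. With quantile normalisation the middle value became 0.16 for the head, with 4 of 5 genes higher on FGFR3KO. For the body and platform it became -0.04, with 2 of 6 higher. The 6 genes linked to Diamond-Blackfan anaemia in people (Rps7, Rps10, Rps19, Rps24, Rps27, Rps28) had medians of -0.26, 0.50 and -0.71 in the same order of pairs, near those of all 24 genes. No exit tunnel summary is given, because only Rpl19 and Rpl22 could be compared.

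Other genes of translation were set beside these. Mitochondrial ribosomal proteins, which build the separate ribosome of that organelle, had a median log2 difference of -0.33 between FGFR3Act and FGFR3WT, with 43 of 53 lower (55.7% of all genes) and 13 at least 1.5-fold lower (16.3% of all genes). Between FGFR3KO and FGFR3WT their median was 0.16, with 36 of 54 higher (48.5% of all genes), and between FGFR3Act and FGFR3KO it was -0.44, with 46 of 53 lower (53.2% of all genes). These medians kept their direction under all 5 scalings. Mrps11 had 145 on FGFR3Act, 424 on FGFR3KO and 346 on FGFR3WT, Mrps26 had 245, 605 and 449 in the same order, and Mrpl52 had 844, 2436 and 1372.

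Genes that assemble ribosomes lay on both sides of 0. As deposited, over 52 ribosome biogenesis and RNA polymerase I genes the median log2 difference was 0.03 between FGFR3Act and FGFR3WT and -0.07 between FGFR3KO and FGFR3WT, and over 51 it was 0.03 between FGFR3Act and FGFR3KO. The first of these medians was 0.145 with median centring, 0.12 with cyclic loess and 0.11 with quantile normalisation, and the second 0.02 with median centring. Brix1, an assembly factor of the large subunit, had 665 on FGFR3Act, 1744 on FGFR3KO and 1208 on FGFR3WT. Tsr1, which acts on the small subunit, had 1506 on FGFR3Act, 559 on FGFR3KO and 1346 on FGFR3WT. Bop1, which processes the ribosomal RNA of the large subunit, had 189 on FGFR3Act, 487 on FGFR3KO and 292 on FGFR3WT.

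Among 26 initiation factor genes the median log2 difference was -0.05 between FGFR3Act and FGFR3WT, -0.19 between FGFR3KO and FGFR3WT and 0.02 between FGFR3Act and FGFR3KO. The first and the last changed sign with scaling, to 0.07 with median centring and -0.02 with quantile normalisation. The helicase gene Eif4a2 had 4287 on FGFR3Act, 1374 on FGFR3KO and 3378 on FGFR3WT. Eif3a, the largest subunit of the eIF3 complex, had 515, 197 and 418 in the same order, and Eif5b, which joins the subunits, had 570, 454 and 278. The first pair were lowest on FGFR3KO and Eif5b was highest on FGFR3Act. The list of 5 elongation genes, which includes Tpt1 and the methyltransferase Eef1akmt1, had medians of -0.31 between FGFR3Act and FGFR3WT, -0.02 between FGFR3KO and FGFR3WT and -0.33 between FGFR3Act and FGFR3KO, the second turning to 0.07 with median centring. Eef1a1, which carries tRNA to the ribosome and has a bright probe set, had 19046 on FGFR3Act, 20014 on FGFR3KO and 13015 on FGFR3WT. Eef1d, of the factor that recharges it, had 1082, 1573 and 1598 in the same order.

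Of the 15 mTORC1 and S6 kinase genes compared, 11 were lower on FGFR3Act than on FGFR3WT, with a median of -0.29, and 4 were at least 1.5-fold lower, where the shares of all genes were 55.7% and 16.3%. Between FGFR3KO and FGFR3WT the median was 0.23, with 8 higher and 7 lower (48.5% of all genes higher), and between FGFR3Act and FGFR3KO it was -0.50, with 9 lower (53.2% of all genes). Eif4ebp1, which encodes a translation repressor that mTORC1 switches off, had 644 on FGFR3Act, 2043 on FGFR3KO and 1485 on FGFR3WT. The mTORC1 inhibitor gene Ddit4 had 1055 on FGFR3Act, 2688 on FGFR3KO and 2011 on FGFR3WT. The S6 kinase gene Rps6kb2 had 142, 363 and 271 in the same order. These 3 were lowest on FGFR3Act and highest on FGFR3KO, whereas Sesn1, which restrains mTORC1 when amino acids are short, had 343, 132 and 266 in the same order. The transcription factor gene Myc, a known activator of ribosomal protein genes, had 186 on FGFR3Act, 174 on FGFR3KO and 256 on FGFR3WT. Myc was picked for its role; furthest apart in its list were Mxd3, with 37.5, 356 and 151 in that order, and Mxd4, with 973, 2203 and 2573. The 6 compared genes of Myc and its partners had medians of -0.24 between FGFR3Act and FGFR3WT, -0.11 between FGFR3KO and FGFR3WT and 0.01 between FGFR3Act and FGFR3KO.

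**Figure D4:**
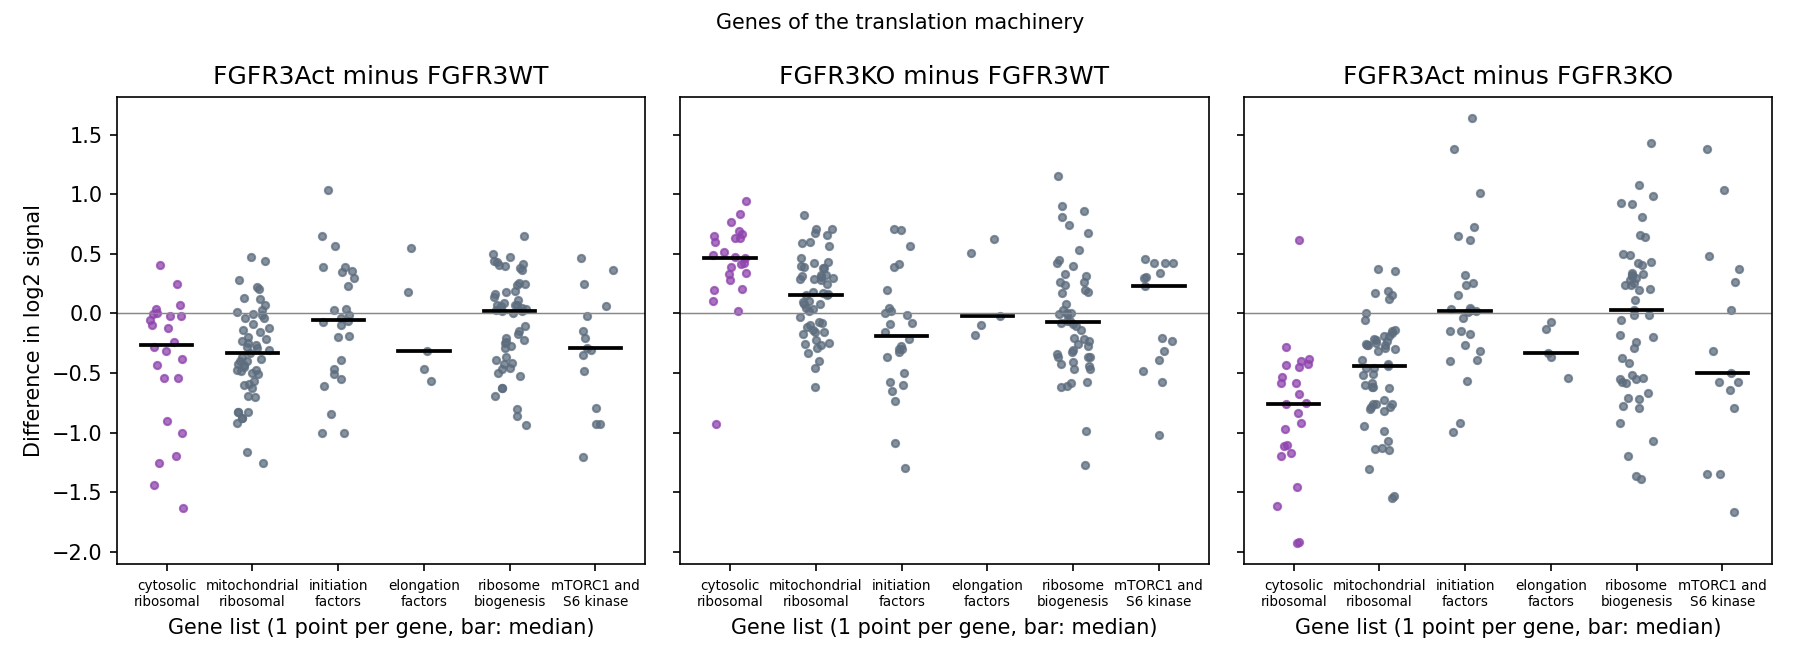
Difference in log2 signal for 6 lists of translation genes in each pair of arrays, with 1 point per gene and a bar at the median. The medians of cytosolic and mitochondrial ribosomal protein genes lie below 0 in the first and last panels (-0.26 and -0.33, then -0.76 and -0.44). So do those of the elongation list and the mTORC1 and S6 kinase list (-0.31 and -0.29, then -0.33 and -0.50). Both ribosomal protein lists also have genes above 0 in these panels, and ribosome biogenesis genes spread to both sides of 0.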

How the data were processed

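Per the labels' protocols, biotin-labelled cRNA was made from 15 μg of total RNA. The deposited table gives 1 intensity for each of 9889 probe sets and 3 columns. Per the submitters' processing notes, the authors made these intensities with MAS5. No source used here gives the version, the scaling target or detection calls, or says whether a column is 1 array, a pool or a mean. Precision is limited by the 1 column per genotype.

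The 18 control probe sets were left out. GEO's platform annotation gave 1 symbol to 9039 probe sets and several to 323. Symbols were updated by gene identifier from RefSeq (GRCm38.p6), in which 9027 matched. Signals were raised to the 40th percentile of the array, log2 was taken, and a gene entered a pair if above that floor on at least 1 array. Folds of 1.5 and 2 describe size and test nothing. Scaling alternatives were median centring, centring on genes in the members' signal range (the 5th to 95th percentile of their mean log2 signal), quantile normalisation and cyclic loess (limma 3.58.1, R 4.3.3). Others were floors at the 20th and 60th percentiles, an offset of 12, filters, probe set choice and leaving out paralogues. The arithmetic was tested on simulated data. Tables and figures were made with Python 3.11.15, pandas 2.3.3 and matplotlib 3.10.9.

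All members were accounted for, with signals on the 3 arrays for those at least 1.5-fold apart in any pair, and from each other translation list the 2 to 4 genes furthest apart were named. The members, lists and rules were chosen with earlier results of these data known.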

Additional observations from a re-analysis of the deposited data

How the results depend on the processing

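No paired analysis was possible because each genotype has 1 column. Of 144 recomputed values, 130 moved by no more than 0.1 on the log2 scale, or for counts by no more than 1.5 times, and 14 moved further. No median over the 24 genes changed direction, but the small minus large subunit difference changed sign in 3: between FGFR3Act and FGFR3WT (0.07) it was -0.01 with cyclic loess and -0.02 with no filter, and between FGFR3KO and FGFR3WT (0.03) -0.01 without probe sets of the _s_, _x_ and like kinds. The median log2 difference between FGFR3Act and FGFR3WT (-0.26) was -0.14 with median centring, -0.39 with quantile normalisation and -0.38 without probe sets of the _s_, _x_ and like kinds, which left 21 genes. That between FGFR3KO and FGFR3WT (0.47) was 0.084 with quantile normalisation and 0.24 with cyclic loess, and the count at least 1.5-fold higher (9) was 2 under both. That between FGFR3Act and FGFR3KO (-0.76) was -0.55 with quantile normalisation, -0.65 with cyclic loess and -0.92 without those probe sets. The small minus large subunit difference between FGFR3KO and FGFR3WT was 0.13 with cyclic loess. Between FGFR3Act and FGFR3WT it was 0.21 without those probe sets. Between FGFR3Act and FGFR3KO it was 0.084 with the floor at the 60th percentile and 0.084 without paralogues. The cause of these shifts was not tested. Signals near the floor are the least reliable, and at the bright end the arrays differ in range.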
